A study of Mus musculus with 24 samples.

Results

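The posterior genes of the Hoxc and Hoxd clusters are Hoxc9, Hoxc10, Hoxc11, Hoxc12 and Hoxc13 on mouse chromosome 15, and Hoxd9, Hoxd10, Hoxd11, Hoxd12 and Hoxd13 on chromosome 2. Binding of the homeobox transcription factor Cdx2 was examined at these 10 genes by taking every Cdx2 peak whose summit lay in the body of one of them or within 20 kb to either side. The windows joined into 1 stretch of 104 kb at Hoxc (chr15:102901103-103005099) and 1 of 71.9 kb at Hoxd (chr2:74648310-74720208, both mm10), and also took in the starts of the neighbouring genes Hoxc8, Hoxc6, Hoxc5, Hoxd8, Hoxd4 and Hoxd3. Peaks that overlapped between libraries were merged into regions. Of 61454 regions in the genome, 9 had their summit in these windows. Of the 9, 6 were at Hoxc and 3 at Hoxd, 5 were called in at least 2 libraries and 4 in 1 library. Over the genome 42.2% of regions were called in 1 library.

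Cdx2 was mapped by ChIPmentation, a form of ChIP-seq in which a transposase adds the adapters on the beads, in organoids of the proximal and distal colon of 3 mice that had been kept in culture for 4 months. WENR-plus medium holds Wnt3a, R-spondin 1, Noggin and EGF, which keep colon organoids in a stem-cell state, and the WENR-minus organoids were plated in WENR-plus for 2 days and then went without those factors for 3 days. The 12 Cdx2 libraries comprised 3 replicates for each colon site in each of these media. All carried 1 copy of a Cre-inducible BrafV600E allele and of a tdTomato reporter at Rosa26, and the labels do not say whether Cre had been applied. Per the methods, the organoids were derived from female mice aged 8 weeks. The growth and treatment notes call the media ENSW-plus and ENSW-minus. DNA came from 6 wells of organoids. The replicate numbers were labelled as biological replicates without naming the mouse, so the p-values below measure the spread between these libraries.

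Hox genes encode homeodomain proteins that give cells a position along the body axis, and the genes of a cluster lie in the order of their domains. The paralogs numbered 9 to 13 sit at the 5′ end and act in the trunk, the tail, the limbs and the hindgut. Cdx2 is a homeobox factor of the intestinal epithelium, is related to the Hox genes and regulates them in the embryo, and binds AT-rich sites read as TTTATGA or close forms of it.

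The lists of the 12 libraries held from 5608 to 42192 peaks, the median list being 21930.5 peaks long in proximal libraries and 7899.5 in distal ones (n = 6 each). They hold no reads, so the depth of a library cannot be read from them, and a site without a peak is one where none was called. The paper's reporting summary lists a sequencing depth for each library, which was not used here. The promoters of 7 of 8 genes of colon epithelium had a peak in at least 1 library, and those of Krt20, Car1, Vil1, Hnf4a and Cdh17 in all 12. The promoter of Cdx2 had one in 5 libraries (4 proximal and 1 distal), that of Epcam in 1 and that of Cdx1 in 0. Of 10 genes of fibroblasts, muscle, leukocytes and endothelium 1 had a promoter peak, Col1a2, in 1 library.

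The sequences around the 5 regions shared by libraries are given first, since all results below turn on these sites. Each shows 100 bases to either side of the median summit on the plus strand of mm10, in lower case. Capitals mark the Cdx2 motif, which is TTTATGA in its first form, TTTATGG in the second, TTTATTA in the third and TTTATTG in the fourth, and also TTTACGA, each searched on both strands. No marked stretch overlaps another in these sequences. Names give Hox genes that flank or adjoin each site, not always the 2 nearest starts.
Hoxc9/Hoxc10 region, chr15:102972036-102972236: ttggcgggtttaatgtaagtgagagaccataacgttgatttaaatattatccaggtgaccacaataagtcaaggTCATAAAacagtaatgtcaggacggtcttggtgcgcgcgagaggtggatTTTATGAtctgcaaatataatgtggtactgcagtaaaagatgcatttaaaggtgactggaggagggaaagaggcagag
Hoxc8 region, chr15:102992934-102993134: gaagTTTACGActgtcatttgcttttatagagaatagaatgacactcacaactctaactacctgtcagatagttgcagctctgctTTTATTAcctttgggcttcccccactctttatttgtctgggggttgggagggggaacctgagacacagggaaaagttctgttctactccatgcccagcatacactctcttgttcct
Hoxc6 region, chr15:102998044-102998244: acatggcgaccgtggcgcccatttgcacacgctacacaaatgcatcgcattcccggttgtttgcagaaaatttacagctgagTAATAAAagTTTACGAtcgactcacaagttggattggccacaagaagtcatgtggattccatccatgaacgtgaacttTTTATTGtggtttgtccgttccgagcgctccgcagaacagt
Hoxd9/Hoxd8 region, chr2:74701001-74701201: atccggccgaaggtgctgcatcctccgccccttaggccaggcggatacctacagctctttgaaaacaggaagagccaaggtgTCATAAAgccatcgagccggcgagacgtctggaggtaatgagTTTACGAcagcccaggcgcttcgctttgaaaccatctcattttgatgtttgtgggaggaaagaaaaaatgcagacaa
Hoxd3/Hoxd4 region, chr2:74711703-74711903: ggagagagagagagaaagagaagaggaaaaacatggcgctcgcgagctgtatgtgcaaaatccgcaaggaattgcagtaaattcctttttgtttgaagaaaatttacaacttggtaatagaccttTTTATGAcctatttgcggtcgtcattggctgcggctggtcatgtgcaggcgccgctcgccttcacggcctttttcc

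All 5 regions held a form of the Cdx2 motif no more than 50 bp from the median summit. So did 66.7% of all 35518 regions called in at least 2 libraries and 11.7% of windows placed 1000 bp to either side of a region. Among regions in at least 2 libraries the share was 100% of the 6 at the other Hoxc and Hoxd genes. It was 87.9% of the 33 at Hoxa and Hoxb. The Hoxc9/Hoxc10 region held TTTATGA in both orientations, centred 23 bp before and 26 bp after the summit. The Hoxd9/Hoxd8 region held it 15 bp before the median summit and the Hoxd3/Hoxd4 region 28 bp after the median summit. At these regions the summits of single libraries spread over 158 bp and 103 bp, and none lay at the median. Summits of single libraries could therefore lie farther from the motif. Among the 4 regions of 1 library 3 had a motif, and the 1 near Hoxc11 had none. When all libraries of replicate 2 were left out, the share at regions in at least 2 libraries was 60%. It was 66.7% in lists of equal length and 75% with a −log10 q of at least 5. TTTACGA, which was searched only after the sequences had been read, lay within 50 bp of the summit in the Hoxc6 and Hoxd9/Hoxd8 regions. That was 40% of the 5 regions, against 1.87% of all regions in at least 2 libraries, 33.3% of the 6 at the other Hoxc and Hoxd genes, 6.06% of the 33 at Hoxa and Hoxb and 0.154% of the windows to the side. The 5 regions had a median GC content of 44.6% over the 101 bp around the summit, against 44.6% over the regions at Hoxa and Hoxb, 45.05% over those at the other Hoxc and Hoxd genes and 34.7% over all regions in at least 2 libraries.

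No Cdx2 peak lay within 20 kb of the most posterior genes in any of the 12 libraries. These were Hoxc13 (chr15:102921103-102928814), a gene of hair and nail, Hoxc12 (chr15:102936757-102938609), Hoxd13 (chr2:74668310-74671599), which acts in digits and the hindgut, and Hoxd12 (chr2:74675013-74677705). Among 21911 protein-coding genes given the same window, 47.3% had no region called in at least 2 libraries and 33.6% had no peak in any library, so an empty window was not unusual in these lists. Past the 5′ end of both clusters, regions in at least 2 libraries were absent for a further stretch. At Hoxc 314.2 kb separated the region between Hoxc9 and Hoxc10 from the next region in at least 2 libraries on the 5′ side, and at Hoxd the gap was 144.6 kb. Between the window and the next 5′ gene, Calcoco1 at Hoxc and Lnpk at Hoxd, no region was called in at least 2 libraries over 178.9 kb and 68.9 kb. These stretches were not free of peaks, as 1 region at Hoxc and 2 at Hoxd were each called in 1 library. With peaks of any library counted, the gaps were 91.4 kb at Hoxc, from the peak near Hoxc11, and 105.4 kb at Hoxd. No distribution of gaps over the genome is given here, so whether these lengths are unusual cannot be said.

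**Figure D1:**
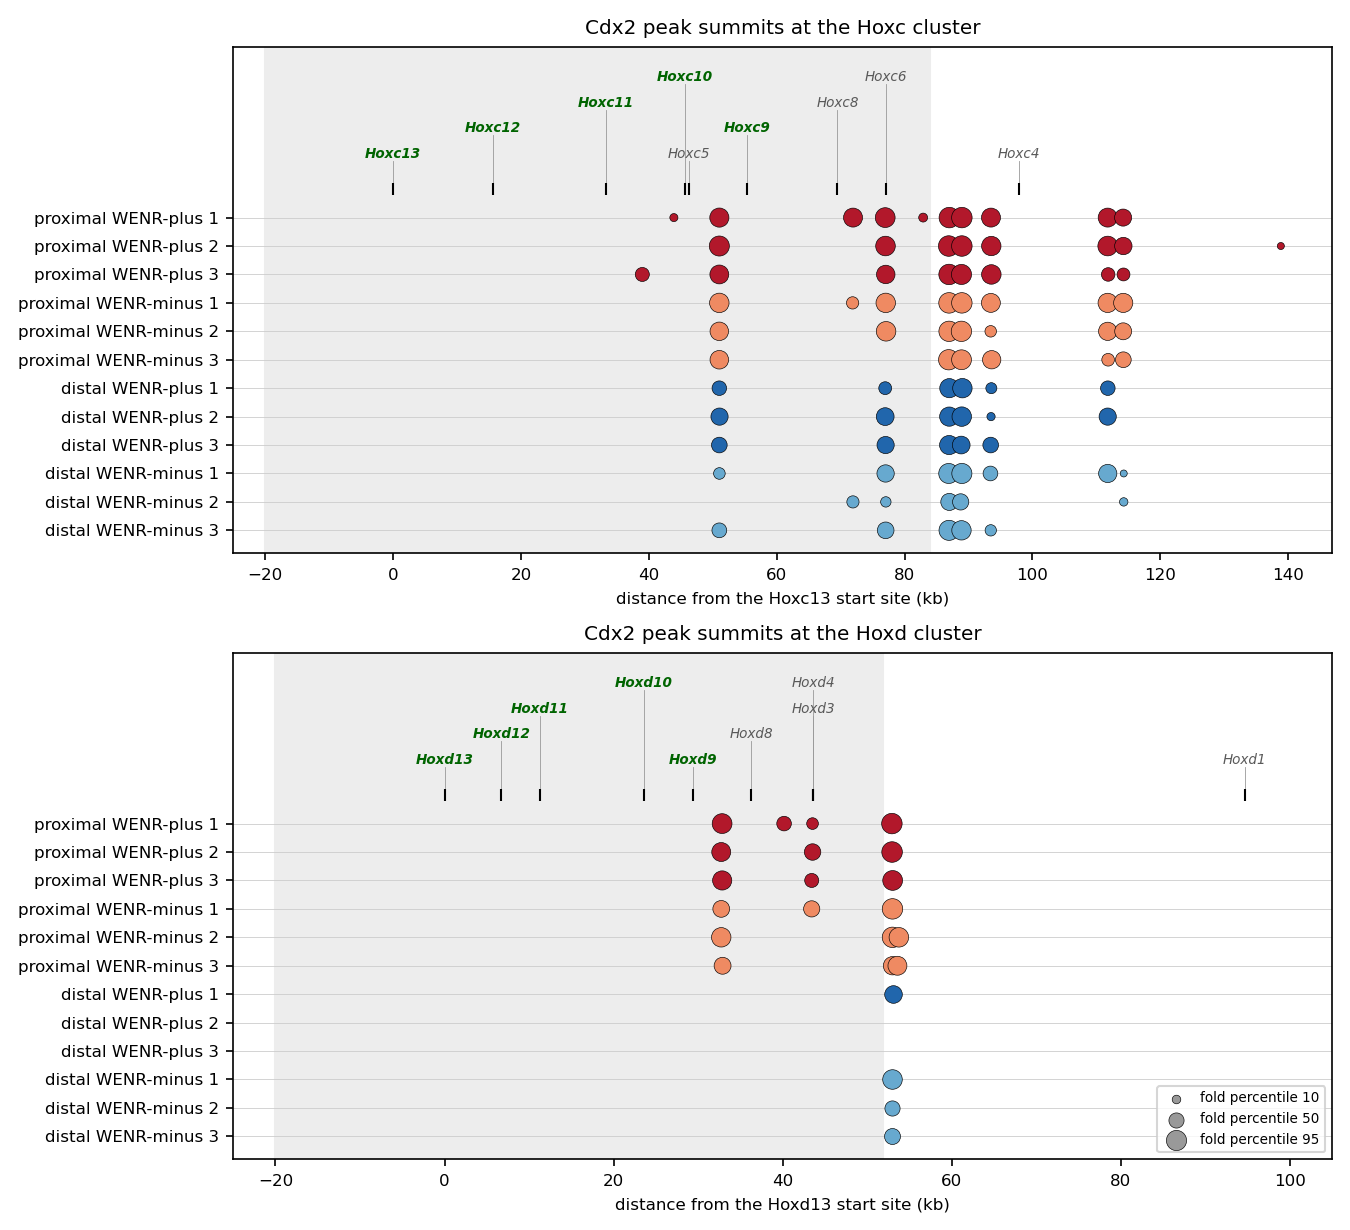
Summits of Cdx2 peaks in each library (rows) along the Hoxc and Hoxd clusters, by distance in kb from the start of Hoxc13 or Hoxd13. Point size is the percentile of the peak's fold within its own list, grey marks the windows of the 10 posterior genes (green names), and ticks mark gene starts. The left part of both windows is empty in all 12 libraries, the Hoxc columns hold proximal (red) and distal (blue) libraries, and the Hoxd columns inside the window hold proximal libraries only.

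Hoxc11 (chr15:102954427-102957708), Hoxc10 (chr15:102966796-102971893) and Hoxc9 (chr15:102976439-102985099), the last 2 of which act in motor neuron and axial patterning, shared the region between Hoxc10 and Hoxc9 (chr15:102971805-102972415). Its median summit was 4303 bp from the start of Hoxc9, 5.34 kb from that of Hoxc10 and 17.7 kb from that of Hoxc11, so a single site stood in the windows of all 3 genes. The nearest annotated start of any kind was that of the microRNA gene Mir196a-2, at 1214 bp. The summit lay in no exon, but in an intron of a long annotated transcript of Hoxc5 (GENCODE vM21). The region was called in 11 of 12 libraries, all 6 proximal and 5 distal, and not in distal WENR-minus replicate 2. Of all 35518 regions, 9.13% were called in at least 11 libraries, and 2 of the 5 regions here. None of the 5 was called in all 12 libraries, as 5.85% of all regions were. Among these 11 libraries the summits lay within 36 bp of each other.

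The strength of a peak was read as the percentile of its fold enrichment within its own list. In proximal WENR-plus the Hoxc9/Hoxc10 peak had folds of 8.24, 11.9 and 10.2, at percentiles 85.0, 94.0 and 82.3. In proximal WENR-minus the folds were 9.13, 8.14 and 8.89, at percentiles 88.1, 78.8 and 79.4. In distal WENR-plus the folds were 6.17, 7.11 and 6.83, at percentiles 45.2, 66.9 and 53.9, and in the 2 distal WENR-minus libraries with a peak (replicates 1 and 3) 4.52 and 5.82, at percentiles 25.7 and 47.1. Every proximal value was above every distal one, on both scales. Averaged over the media of each line (site and replicate number), the percentile was 84.6 ± 3.24 in proximal and 50.9 ± 15.7 in distal lines (SD, n = 3 each). The difference of 33.7 points had p = 0.1 (two-sided exact permutation test, adjusted p = 0.1 over the 2 regions tested), the smallest p that 3 against 3 can give. A percentile is taken over the whole list, and the proximal lists were the longer ones at the median. In lists of equal length, each shortened to its 5608 strongest peaks, the difference was 14.7 points (exact permutation p = 0.3). Only libraries with a peak enter these means, and in the shortened lists 6 proximal and 4 distal libraries kept the region. The value of distal line 2 rested on its WENR-plus library alone.

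The site next to Hoxc6 (chr15:102997822-102998348), 113 bp before the Hoxc6 start, was the other region in 11 libraries. It was called in all 6 distal and 5 proximal libraries, and not in proximal WENR-minus replicate 3. Fold in the proximal libraries ran from 9.13 to 10.3, with a median of 9.41, and in the distal libraries from 4.73 to 7.68, with a median of 6.39. The percentiles were 78.6 to 91.4 in proximal and 18.8 to 72.1 in distal libraries and did not overlap. The line means were 85.8 ± 6.23 and 53.6 ± 9.88 (SD, n = 3 each), a difference of 32.2 points with exact permutation p = 0.1. With lists cut to equal length the difference was 11.7 points and the exact permutation p was 0.5, over the 5 proximal and 4 distal libraries that kept the region. The value of proximal line 3 rested on its WENR-plus library alone. The Hoxc site at Hoxc8 (chr15:102992937-102993157), with its summit in an exon of Hoxc8, was called in 3 libraries. Its percentile was 83.4 in proximal WENR-plus replicate 1, 29.7 in proximal WENR-minus replicate 1 and 29.3 in distal WENR-minus replicate 2. The last of these is the library that lacked the Hoxc9/Hoxc10 peak.

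At Hoxd every peak came from a proximal library. Hoxd9 (chr2:74697727-74700208), Hoxd10 (chr2:74691924-74695105), a gene of hindlimb motor neurons, and Hoxd11 (chr2:74679557-74687016), which shapes the forearm, had in their windows the region between Hoxd9 and Hoxd8 (chr2:74700917-74701470). Its summit was 3374 bp from the start of Hoxd9, 3514 bp from that of Hoxd8 and in the annotated microRNA gene Gm44463. It was called in 6 of 6 proximal and 0 of 6 distal libraries. In proximal WENR-plus its fold was 10.1, 7.84 and 10.96, at percentiles 91.4, 83.0 and 85.3. In proximal WENR-minus its fold was 5.64, 9.91 and 7.03, at percentiles 63.1, 87.7 and 64.4. Values of the 2 media overlapped.

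Of all 35518 regions, 640 (1.8%) had a peak in the 6 proximal libraries but in none of the distal ones, and 34 (0.0957%) had the reverse pattern. Of the 5 regions here 1 was proximal-only in this sense, and at Hoxa and Hoxb 3 of 33. The median percentile of the Hoxd9/Hoxd8 region, 84.1, was above that of 82.0% of the 640. Fisher's exact test of 6 against 6 libraries gave p = 0.00216 and an adjusted p of 0.114 (Benjamini-Hochberg over 35518 regions), values that 674 regions shared and that were the lowest of the genome. The libraries of a line in both media are not independent samples of the site. With lines in place of libraries, 0 of the 5 regions had an unadjusted p under 0.05 by Fisher's exact test. With 3 lines against 3 that test cannot give such a p. No region of the genome had an adjusted p under 0.05 by Fisher's exact test, while 1761 (4.96%) had an unadjusted p under 0.05 and were called more often in proximal libraries, and 0.282% an unadjusted p under 0.05 with more distal libraries. In lists of equal length the region was called in 4 proximal and 0 distal libraries, with p = 0.0606 by Fisher's exact test, and 134 regions of the genome were in all 6 proximal and no distal library. Distal WENR-minus replicate 1, with 21040 peaks, had no peak there, while proximal lists of 13592, 15940 and 11409 peaks had one. The part of depth and list length in the missing distal peaks was not tested.

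The other shared Hoxd site lay at the common start of Hoxd3 and Hoxd4 (chr2:74711611-74712049), 124 bp and 126 bp from their first annotated bases and in an intron of the antisense gene Hoxd3os1. It was called in 3 proximal WENR-plus libraries, at percentiles 26.1, 60.6 and 41.7, in proximal WENR-minus replicate 1 at 58.3, and in no distal library. With WENR-plus libraries alone this region and the Hoxd9/Hoxd8 region were in 3 of 3 proximal and 0 of 3 distal libraries, as were 8.12% of all regions. With WENR-minus libraries alone the Hoxd9/Hoxd8 region was, as were 3.53% of all regions. None of the 5 regions had the opposite pattern, 3 of 3 distal and 0 of 3 proximal libraries, which 0.259% of all regions had in WENR-plus and 0.577% in WENR-minus. Fisher's exact p over both media was 0.0606 for the Hoxd3/Hoxd4 region (adjusted p = 0.582). Once the lists were cut to equal length, no library held it. The 4 peaks of 1 library were all proximal WENR-plus, and 42.2% of all regions of the genome were in 1 library. The lists of that group were the longest on average, with 29272 peaks. The means were 18423 in proximal WENR-minus, 12280 in distal WENR-minus and 8786 in distal WENR-plus. Replicate 1 of proximal WENR-plus had 1 near Hoxc10, 1 in Hoxc6 and 1 near Hoxd8, and replicate 3 had 1 near Hoxc11, at percentiles from 7.94 to 45.7. The peak 1770 bp from the start of Hoxc10 was the only peak within 3 kb of the start of a posterior gene.

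**Figure D2:**
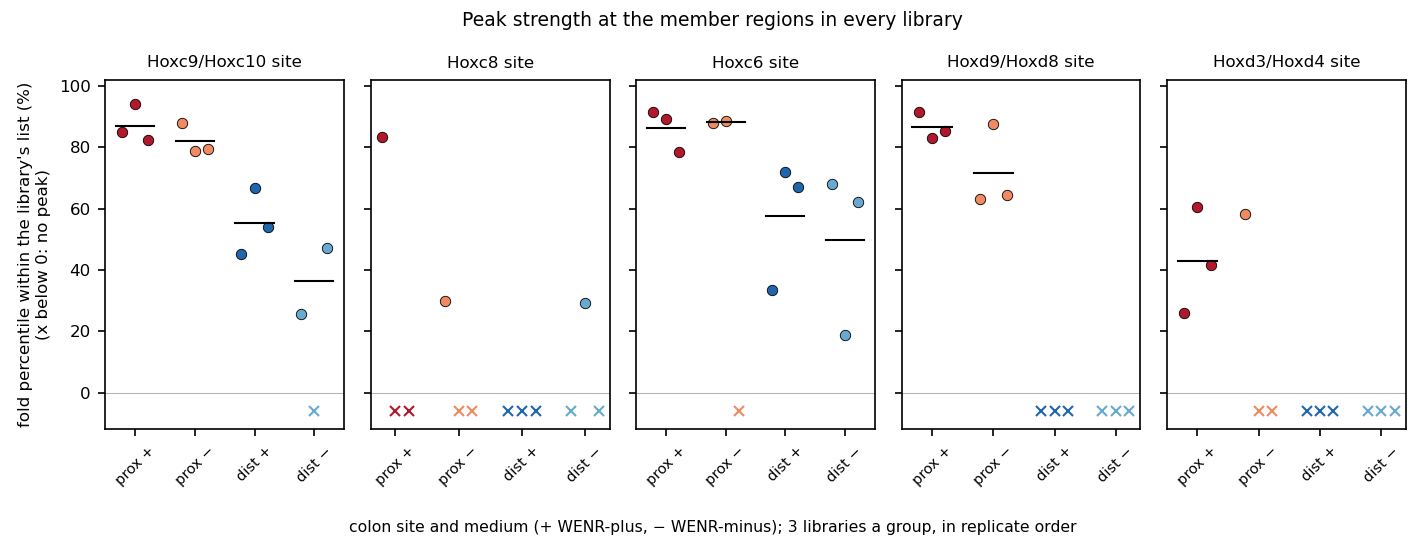
Percentile of fold within the library's own list (%) at the 5 shared regions, for 3 libraries in each group of colon site (prox, dist) and medium (+ WENR-plus, − WENR-minus). Points are libraries, bars are means of groups with at least 2 peaks, and crosses below 0 are libraries without a peak. Proximal points lie above distal points at the Hoxc9/Hoxc10 and Hoxc6 sites, and the 6 distal libraries are crosses at both Hoxd sites.

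The first region past the 3′ end of each window had a higher median percentile than the regions inside it. The medians were 95.4 at Hoxc and 90.2 at Hoxd, against at most 78.8 and 84.1 inside. The next region on the 3′ side of the Hoxc window, 2.97 kb outside it in Hoxc6 (summit chr15:103008069), was called in 12 libraries. Its percentiles were 96.6 to 99.2 in proximal and 66.0 to 94.2 in distal libraries. They did not overlap, so that order was also seen outside the window. Farther 3′ the median was 93.0 at chr15:103010035, and lower, at 53.9, 76.2 and 59.6, at chr15:103014625, chr15:103032881 and chr15:103035326. At chr15:103010035 the sites overlapped, with proximal values from 91.6 and distal values up to 94.5. At Hoxd the next region, 1.10 kb outside the window and 669 bp from a start of Hoxd4 (summit chr2:74721309), was called in all 6 proximal libraries at percentiles 82.9 to 99.3, and in 4 distal libraries at 50.3 to 89.1. Distal peaks were therefore listed in the Hoxd cluster outside the window of the posterior genes.

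Counted per library, peaks in the posterior windows numbered 8, 4 and 5 in proximal WENR-plus and 5, 3 and 2 in proximal WENR-minus. All 6 distal lists held 2, whether the list had 5608 or 21040 peaks. Per 1000 peaks of the list this was 0.237 ± 0.137 in proximal and 0.259 ± 0.104 in distal WENR-plus libraries (SD, n = 3 each), with exact permutation p = 0.8. In WENR-minus libraries it was 0.181 ± 0.00664 and 0.200 ± 0.0913 (SD, n = 3 each), with exact permutation p = 1. Between media the difference had exact permutation p = 0.7 in proximal and p = 0.5 in distal libraries, and all 4 comparisons had an adjusted p of 1. The effect of medium did not differ detectably between sites (difference of -0.00201 per 1000 peaks, exact permutation p = 1). By region too, none of the 5 differed between media, the lowest unadjusted p by Fisher's exact test being 0.545. None was called in 3 of 3 libraries of one medium and 0 of 3 of the other at the same site. Over all regions 1.28% were called in that way in WENR-plus only and 0.206% in WENR-minus only at the proximal site, and 0.222% and 0.709% at the distal site. Over the genome 0 regions had an adjusted p under 0.05 by Fisher's exact test between media, and 45 (0.127%) and 22 (0.0619%) an unadjusted p under 0.05 with more WENR-plus or more WENR-minus libraries.

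Peaks of the 2 clusters were also counted apart. The difference between clusters was not tested on these shares, only on the density per Mb given below. Hoxd peaks made up 0.0850 per 1000 peaks in proximal lines and 0 in distal lines, and Hoxc peaks 0.124 in proximal and 0.230 in distal lines (n = 3 each). Either difference had exact permutation p = 0.1, the smallest possible, and both tests were added after the data were seen. In lists of equal length the Hoxc share was 0.357 in proximal and 0.238 in distal lines, the opposite order, with exact permutation p = 0.3.

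Peaks in the posterior windows were 3.40 ± 0.923 times as dense per Mb as over chromosomes 1 to 19, X and Y (SD, n = 6 lines). The ratio was above 1 in 6 of 6 lines (two-sided exact sign-flip permutation p = 0.0312, the smallest possible). It is set against whole chromosomes, not against windows of other genes. By the same 20 kb window, the median was 1 region in at least 2 libraries for the 10 genes and for all 21911 protein-coding genes. No such region was found for 40% of the 10 and 47.3% of all. The density ratio was 3.40 over both clusters. It was 4.64 ± 1.95 at Hoxc and 1.61 ± 1.92 at Hoxd (exact permutation p = 0.125, n = 6 lines). Hoxa and Hoxb windows, made by the same rule, had a joint ratio of 12.8 ± 5.45, which was higher than that of the posterior windows in all 6 lines (exact permutation p = 0.0312, n = 6). The 6 lines came from 3 mice, so p-values over 6 lines treat lines that may share a mouse as independent. With 3 units the smallest sign-flip permutation p would be 0.25. Hoxa stood at 19.8 ± 12.0, Hoxb at 7.07 ± 2.29 and the other Hoxc and Hoxd genes at 9.44 ± 3.11 (SD, n = 6 lines). By line, the Hoxd ratio was 3.13, 2.09 and 4.45 in proximal and 0 in each distal line, and the Hoxc ratio 3.45, 2.27 and 4.04 in proximal and 4.80, 5.28 and 7.99 in distal lines.

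**Figure D3:**
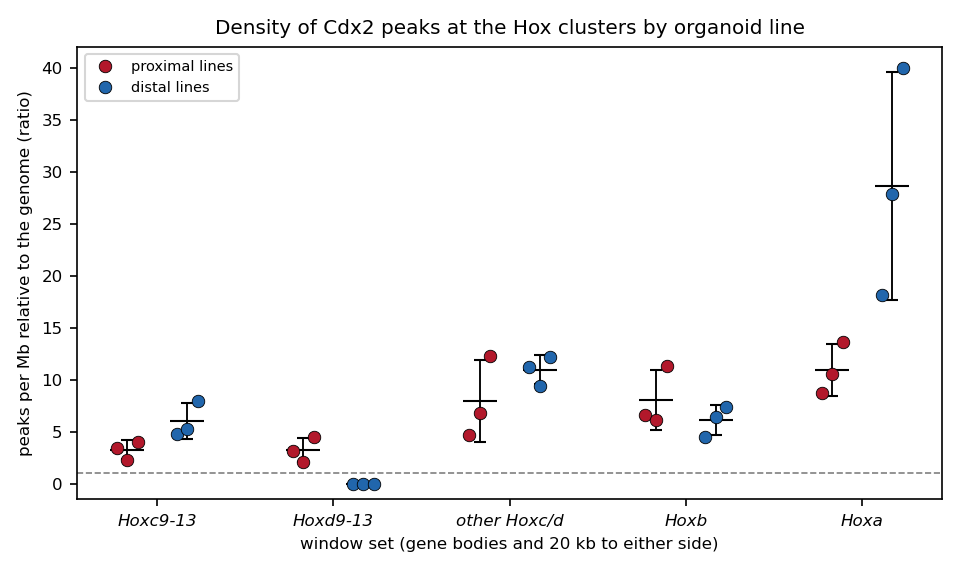
Peaks per Mb in each window set divided by peaks per Mb of the whole genome in the same list (ratio, 1 as the dashed line), averaged over both media of a line. Points are the 3 proximal (red) and 3 distal (blue) lines, and bars are mean and SD. The 3 distal lines sit at 0 for Hoxd9-13, where the proximal lines lie between 2.09 and 4.45, and each of the 6 lines is highest at Hoxa.

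Set beside the other Hox genes, few regions had a posterior Hoxc or Hoxd gene as the nearest of the 39 Hox gene starts (here the first base of the annotated gene). Of the 10 genes, 2 were nearest to a region in at least 2 libraries, Hoxc9 and Hoxd9, with 1 region each. Of the 8 other Hoxc and Hoxd genes 5 were, with 9 regions, and of the 6 genes numbered 9 to 13 at Hoxa and Hoxb 4 were, with 9 regions. Some posterior genes of the other clusters thus had widely called regions, among them Hoxb9 (12 libraries) and Hoxa13 (11 libraries, 10.1 kb from its start). Within 3 kb of the gene start, a peak in any library was found for 1 of the 10 posterior Hoxc and Hoxd genes and for 5 of the 6 posterior Hoxa and Hoxb genes. Most of these were called in few libraries. Hoxb9 had one in 6, Hoxa9 in 2, and Hoxa10, Hoxa11, Hoxa13 and Hoxc10 in 1 each. No share over all protein-coding genes is given beside this count. By the whole 20 kb window, Hoxc9 had 3 shared regions and a peak in 12 libraries, more regions than 85.0% of all protein-coding genes. Hoxd9 and Hoxd10 had 2 and were above 72.4% of genes, and Hoxc10, Hoxc11 and Hoxd11 had 1.

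**Figure D4:**
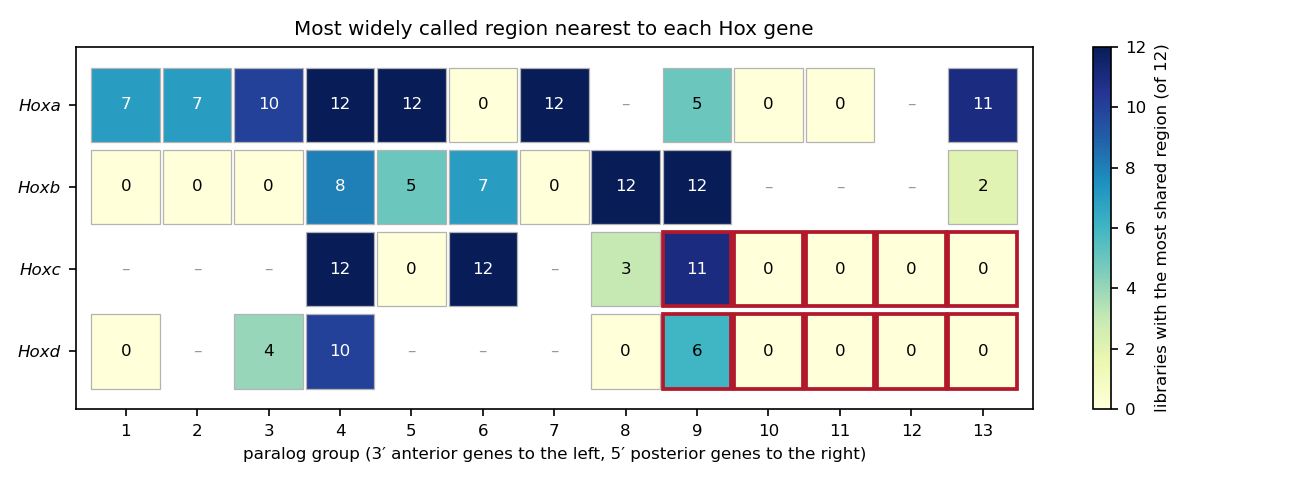
Number of libraries (of 12) with the most widely called region nearest to each Hox gene start, by cluster (rows) and paralog group (columns). Red frames mark the 10 posterior Hoxc and Hoxd genes, a dash marks a paralog that the cluster lacks, and only regions in at least 2 libraries count. Among the framed genes Hoxc9 reads 11, Hoxd9 reads 6 and the other 8 read 0.

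The genes whose peaks varied across the 12 libraries most like the Hoxc9/Hoxc10 region were sought among 14521 genes, by Spearman's rho of the percentile of the strongest peak in their window. Among the highest were Tead1, with a rho of 0.979, and Olfr324, Olfr323 and 2210407C18Rik, which neighbour each other on chromosome 11, with 0.974. The 12 points share libraries and list lengths, and the genes were chosen as the highest of many, so these values are a description.

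RefSeq promoter sequences (GRCm38), which run from just before to just after a transcript start, were matched for 5 of the 10 genes, Hoxd9, Hoxd10, Hoxd11, Hoxd12 and Hoxd13, with 6 promoters. A Cdx2 motif lay in 1 of the 6, at Hoxd11, and in 14.4% of 32851 promoters. No peak was called within 3 kb of the gene start of any of these 5 genes.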

How the data were processed

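Peak lists of 12 Cdx2 ChIPmentation libraries were analysed, and 12 input libraries were not used here beyond their part in the peak calls. Per the methods and the submitters' processing notes, reads were trimmed (Trimmomatic 0.39), checked with FastQC, aligned to mm10 (Bowtie2 2.4.5) and cleared of duplicates (SAMtools 1.13). The authors called peaks per library against its input with MACS2 2.2.7.1 at a q-value of 0.01. The notes also name deepTools 3.5.1. The deposited score is 10 times the −log10 q-value, truncated. The authors' fold is a ratio, pileup at a summit over the local input background. The −log10 p-value and −log10 q-value were deposited as well. Fold depends on the depth and input of its own library, so it was compared as a percentile within a list.

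Only chromosomes 1 to 19, X and Y were used. Peaks overlapping by at least 1 bp were merged into regions. Windows and annotation came from GENCODE vM21, with promoter meaning within 3 kb of a start. The 10 genes, the comparison lists and the tests were chosen with earlier results of these data known, and all 10 genes and every region in at least 2 libraries are named. Tests were two-sided exact permutation tests (smallest p 0.1 for 3 against 3, 0.0312 for 6 lines) and Fisher's exact tests adjusted by the method of Benjamini and Hochberg over all regions in at least 2 libraries. A line was taken as a site and a replicate number, averaged over both media. The code was tested on simulated data. The most alike libraries shared regions with a Jaccard index of 0.524, and all 12 were counted as separate libraries. Alternatives were a stricter −log10 q of 5, lists of equal length (each shortened to 5608 peaks), windows of 10 and 50 kb, any overlap with the window, summits joined within 200 bp, a motif window of 100 bp, lines in place of libraries, leaving out each replicate number and a replicate block. Software was Python 3.11.15 with NumPy 2.4.6, pandas 2.3.3, SciPy 1.17.1, pysam 0.24.0 and matplotlib 3.10.9. One gene of the comparison of patterns across libraries is not reported here.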

Additional observations from a re-analysis of the deposited data

Results flagged for a closer look

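At the Hoxc6 region the percentile of proximal WENR-plus replicate 3, 78.6, stood apart from the other 4 proximal libraries with a peak there, which lay between 88.1 and 91.4, by Dixon's test for 5 values. Over 6 groups tested, chance alone flags about 1 group in 20.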

How the results depend on the processing

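The share of peaks in the posterior windows passed the threshold of 0.05 under no alternative run, which an exact permutation of 3 libraries against 3 cannot do, and its sign was not stable. Proximal minus distal, in peaks per 1000, was 0.178 (WENR-plus), 0.297 (WENR-minus) and 0.238 (lines, exact permutation p = 0.1) with lists of equal length, and 0.0119, 0.0358 and 0.0238 with windows of 10 kb. With windows of 50 kb it was -0.311, -0.0337 and -0.173. With a −log10 q of at least 5 it was 0.0969 in WENR-minus and 0.0196 over lines. Leaving out one replicate number gave -0.0714 to 0.00945 in WENR-minus. WENR-plus minus WENR-minus ran from -0.0114 to 0.132 in proximal and from -7.53e-05 to 0.140 in distal libraries when one number was left out, and was -0.0897 in proximal libraries with windows of 50 kb. With lists of equal length 0 regions here and 134 in the genome were proximal-only, the Hoxc share differed by 0.119 in favour of proximal lines, and the Hoxc6 region was in 1 more proximal than distal library. Without one number the Hoxc8 region was in -1 to 2 more proximal libraries. The density ratio was 2.87 to 3.77, and its difference from Hoxa and Hoxb -11.0 to -7.70, without one number. The ratio was 2.54 with windows of 10 kb, 5.37 with windows of 50 kb and 5.53 in lists of equal length, and the difference -4.03 with windows of 50 kb. Without one number neither can reach p = 0.05, since 4 lines remain and the smallest exact permutation p is 0.125. Hoxc minus Hoxd density was 5.54 in lists of equal length and 5.30 with windows of 50 kb, each with exact permutation p = 0.0312 over the 6 lines from 3 mice. The causes were not tested.

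Same-numbered libraries correlated between -0.0701 and 0.298, not all above 0.1, so the numbers were not taken as pairs in the main tests between groups. The numbers did join the media of a line, in the line means and in the comparison of the effect of medium between sites. The paper reports that most variation in Cdx2 binding came from the independent mice, which the unpaired tests do not take into account. With the replicate block the differences were the same, -0.0216, -0.0196, 0.0566, 0.0586 and -0.0206, with exact permutation p from 0.5 to 1, and no call changed. None of the 5 regions was in all 12 libraries, so the planned percentile test was run on the regions in 11. Sequencing depth was not taken into account, so a site without a peak may fall below what a list could detect.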

Other observations

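Distances to microRNA genes are given for 4 Hox regions that were chosen after their values were seen, with no count over all regions. The Hoxc9/Hoxc10 region was 1214 bp from Mir196a-2. At Hoxb, a region 1704 bp from Mir196a-1, the other copy of that microRNA, was called in 3 proximal libraries and 1 distal library. A region 669 bp from Mir10a was called in 6 proximal and 0 distal libraries at a median percentile of 99.1, and a region 285 bp from Mir615 in 11 libraries at a median percentile of 53.9.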
